A study of Mus musculus with 10 samples.

Results

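The EHD family of endocytic recycling was followed across colonies of bone marrow cells transformed with BCR-ABL. It has 4 members, Ehd1, Ehd2, Ehd3 and Ehd4, out of 45616 genes and transcripts on the array, and 5 of 56605 probes report them. The members were taken by name, as all non-control probes whose transcript maps to 1 of the 4 genes, but the family itself was chosen by measured values, the log2 ratios of mutant over wild-type RNA on all 10 arrays. Those ratios, and every difference between genotypes made from them, are therefore given as a description, without a test. All 4 genes passed the filter on dim probes, so no member was lost.

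EHD proteins are ATPases that bind membranes and carry a C-terminal EH domain, which recognises asparagine-proline-phenylalanine (NPF) motifs in partner proteins. They assemble on tubular endosomes and help to return internalised receptors, such as the transferrin receptor and integrins, to the cell surface. Their partners include MICAL-L1, syndapins, rabenosyn and Rab11 effectors, and they work beside Rab GTPases, retromer and sorting nexins. EHD1 acts at the recycling compartment, EHD2 at caveolae, EHD3 between early endosomes and the recycling compartment, and EHD4 at early endosomes.

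The arrays compared cells without CDK6 (Cdk6-/-) and cells with the kinase-dead mutant Cdk6-K43M with Cdk6+/+ cells. Bone marrow cells of donor mice 6 weeks old were transduced with retrovirus for 24 h and embedded in methylcellulose without growth factors. After 10 days RNA was extracted from individual BCR-ABL+ colonies, with no further treatment in any group. Each of 4 Cdk6-/- and 4 Cdk6-K43M samples was labelled with Cy5 and hybridised with 1 Cy3-labelled pool of 4 Cdk6+/+ samples, and 2 further arrays, called swapped pools here, held the pool of each mutant's 4 samples in Cy3 and the Cdk6+/+ pool in Cy5. All groups share the oncogene and the culture. The submitters call the samples biological replicates, but the labels do not tie them to animals, and the strain and the number of colonies behind a sample are not given, so the spread between samples may be partly technical. The wild-type pool is 1 control sample without a spread of its own, and both mutant comparisons share it.

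The scanner found between 46.9% and 49.9% of probes well above background in the mutant RNA of the 8 single-sample arrays, and the 10 arrays lay on 3 slides. All 11 B-lineage progenitor markers (Pax5, Ebf1, Vpreb1 and others) were kept by the filter, with summed linear levels, in units of 1000, of 366 to 435 in Cdk6-/- samples, 348 to 389 in Cdk6-K43M samples and 303 to 390 in wild-type RNA. Granulocyte, monocyte and macrophage markers summed to 6.17 to 7.85 for Cdk6-/-, 5.99 to 20.7 for Cdk6-K43M and 9.77 to 11.3 for wild type in these units, with the highest sum in Cdk6-K43M replicate 4. T and NK cell markers summed to 13.0 to 18.7, 11.7 to 29.1 and 19.4 to 21.6 in the same order, and Cd3g, Cd8a and Ncr1 were not well above background on any array. Of 10 endothelial and stromal markers, 6 were never well above background, among them Cdh5, Tek, Col1a1 and Pdgfrb, and the 10 summed to 0.922 to 1.16, 0.871 to 0.976 and 0.924 to 0.981. Gata1, Itga2b and Gp1ba of the erythroid and megakaryocyte list and Cpa3, Mcpt8, Ms4a2 and Gata2 of the mast cell list were never well above background either. In RNA of whole colonies, fewer cells of a type and less RNA per cell cannot be told apart. The Cdk6 probe gave log2 ratios of -0.37, -0.40, -0.18 and 0.0024 in Cdk6-/- replicates 1 to 4, and its place relative to the deleted part is not known here, so it does not check the labels.

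Promoter sequences are shown for Ehd3 and Ehd4, whose ratios lay on opposite sides of the wild-type pool in every Cdk6-/- sample. They come from RefSeq (GRCm38.p6), whose promoter table matched 3 members, Ehd2, Ehd3 and Ehd4. Each runs 5′ to 3′ on the gene's strand from 250 bases before the annotated start to 50 bases after it. Capitals mark CCAAT or its reverse complement ATTGG, the core of the site bound by NF-Y, and GGGCGG or its reverse complement CCGCCC, the GC box. The Ehd3 window is chr17:73804591-73804890 on the plus strand and the Ehd4 window is chr2:120154526-120154825 on the minus strand.
Ehd3: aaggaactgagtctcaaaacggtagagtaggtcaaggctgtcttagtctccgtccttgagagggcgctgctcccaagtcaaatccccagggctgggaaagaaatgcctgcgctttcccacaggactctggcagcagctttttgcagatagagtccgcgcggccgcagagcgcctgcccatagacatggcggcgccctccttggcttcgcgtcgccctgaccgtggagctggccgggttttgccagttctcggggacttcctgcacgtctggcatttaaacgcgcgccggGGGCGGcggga
Ehd4: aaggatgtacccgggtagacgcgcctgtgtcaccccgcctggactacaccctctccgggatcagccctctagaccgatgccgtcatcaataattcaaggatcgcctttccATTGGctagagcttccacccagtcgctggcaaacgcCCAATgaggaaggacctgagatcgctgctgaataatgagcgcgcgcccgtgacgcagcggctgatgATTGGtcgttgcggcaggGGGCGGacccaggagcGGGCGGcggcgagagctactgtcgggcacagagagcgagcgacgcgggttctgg

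The Ehd4 window held 3 CCAAT motifs, which begin at positions -140, -104 and -38 relative to the gene's start, and 2 GC boxes. The Ehd3 window held 1 GC box, at position 40, and no CCAAT motif. The window of Ehd2 (chr7:15967486-15967785, minus strand) held 1 CCAAT motif and 2 GC boxes. Of 32851 promoter windows of the same length, 37.4% held a CCAAT motif and 35.7% a GC box. Further motifs were searched on both strands and none of the 3 windows held them. The AP-1 motif TGANTCA is in 7.81% of all windows. The STAT motif is in 8.30%, spelled TTCNNNGAA. The E2F motif GCGGGAA is in 4.60%, and the TATA box, searched as TATAAA, is in 13.6%. All 3 windows held more CG dinucleotides than the median of 7, with 24 in Ehd3, 29 in Ehd4 and 18 in Ehd2. Fewer were found in 80.0%, 87.1% and 70.3% of all windows, in that order. A match or its absence describes letters in this window, and a link to the array values was not tested. The printed windows were themselves chosen by those values.

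Ehd3 had the highest fitted change of all 22008 measured genes in Cdk6-/- colonies, whereas Cdk6-K43M colonies were above the wild-type pool by less. In Cdk6-/- replicates 1 to 4 the log2 ratio of Ehd3 (probe A_51_P360918, NM_020578) over the wild-type pool was 3.29, 3.62, 3.37 and 1.46. The swapped pool of the same 4 samples gave 3.17. Replicates 1 to 3 and the pool lay close together, and replicate 4 was far below them but still above every Cdk6-K43M sample. The mean was 2.93 ± 0.995 (SD, n = 4). The fitted log2 change, which also uses the swapped arrays and removes a dye effect, was 3.05, or 8.26-fold, a size that is uncertain because the spot was well above background in wild-type RNA on 5 of 10 arrays. Without Cdk6-/- replicate 4 it was 3.36.

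In Cdk6-K43M replicates 1 to 4 the log2 ratio of Ehd3 was 0.62, 0.60, 0.70 and 0.17, and the swapped pool gave 0.71. All 5 arrays were thus above the wild-type pool, as they were in Cdk6-/-. A gene was above the pool on all 5 arrays in 11.1% of genes in Cdk6-/- and in 14.5% in Cdk6-K43M, and because these contrasts chose the family nothing is read from those shares. The mean in Cdk6-K43M was 0.52 ± 0.239 (SD, n = 4). The fitted change was 0.62, or 1.54-fold, rank 484 of 22008. The lowest sample was again replicate 4, a number that only names the sample and does not link it to the Cdk6-/- sample of the same number. Cdk6-K43M replicate 4 also had the highest sum of granulocyte, monocyte and macrophage markers (20.7), whose part in the Ehd3 value was not tested.

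**Figure D1:**
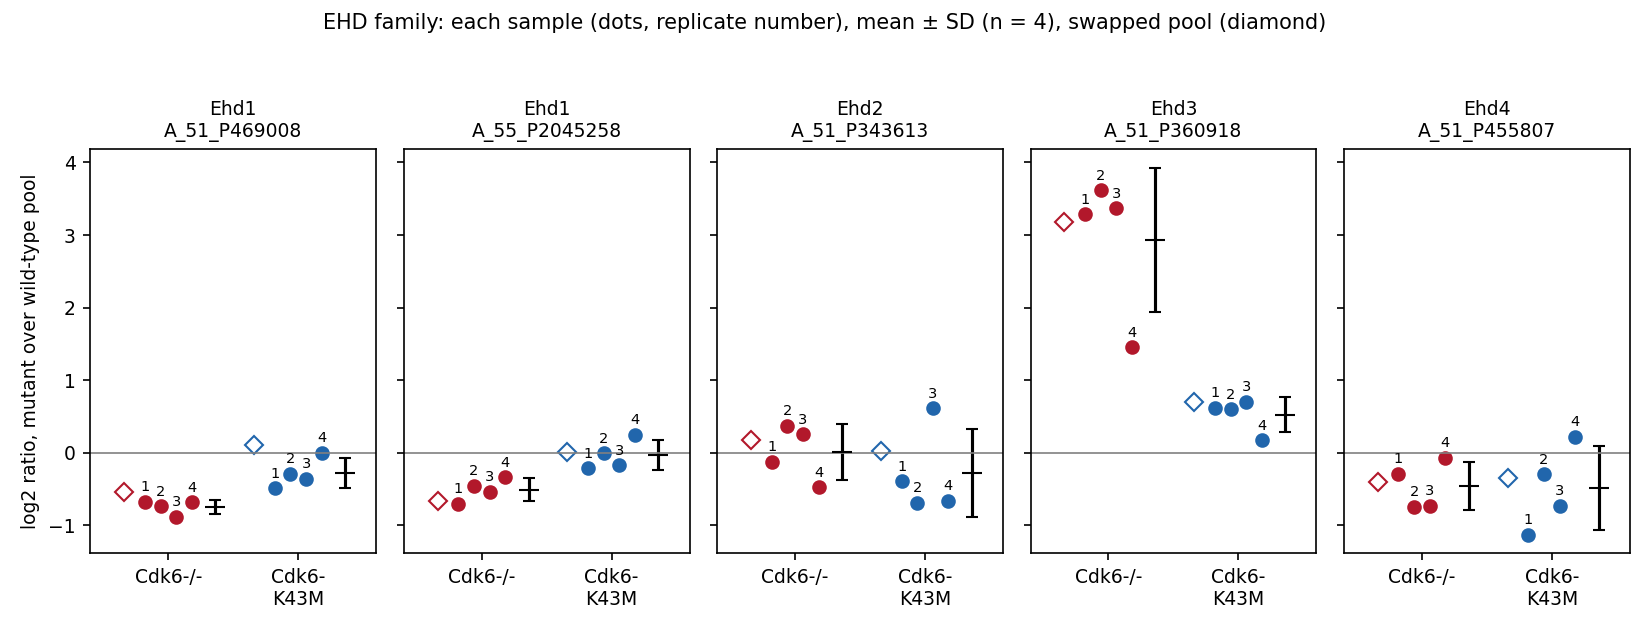
Log2 ratio of mutant over wild-type pool for the 5 probes of the EHD family; dots are single samples with their replicate numbers, diamonds are swapped pools, and bars are mean ± SD of 4 samples. Ehd3 stands at 1.46 to 3.62 in Cdk6-/- samples against 0.17 to 0.70 in Cdk6-K43M samples, and both Ehd1 probes are lower in Cdk6-/- than in Cdk6-K43M, while Ehd2 and Ehd4 overlap.

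The Ehd3 difference between the genotypes was -2.41 (Cdk6-K43M minus Cdk6-/-, log2) with a pooled SD of 0.723. The lowest Cdk6-/- sample stood above the highest Cdk6-K43M sample. Such a separation with Cdk6-/- higher was found in 4.11% of genes, a share given beside the rule's own contrast without a reading. Without Cdk6-/- replicate 4 the difference was -2.90. The swapped pools differed by -2.47. Within slides the order was the same, with 3.29 against 0.62 on slide 1, means of 2.41 against 0.39 on slide 2 (2 samples of each genotype), and 3.62 against 0.70 on slide 3.

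Ehd3 was near the background of the array in wild-type RNA. Its normalized log2 channel level in the wild-type pool ran from 6.33 to 7.02 with a median of 6.60, and the spot was well above background on 5 of 10 arrays. In Cdk6-/- replicates 1 to 4 the channel level was 10.25, 10.30, 10.39 and 8.15, well above background on 4 of 4 arrays. In Cdk6-K43M it was 7.11, 7.13, 7.40 and 6.68, well above background on 3 of 4 arrays. In order of level, wild type and Cdk6-K43M were neighbours whose ranges over all arrays overlapped (means 6.64 ± 0.220, n = 10 repeats of 1 pool, and 7.08 ± 0.295, n = 4). On the same array, each Cdk6-K43M sample was above the wild-type channel, at log2 ratios of 0.17 to 0.70. Cdk6-/- followed at 9.77 ± 1.09 (n = 4), apart from both. The size of the ratio differed between processings. From Agilent's processed signals, the fitted change was 4.73 in Cdk6-/- and 1.57 in Cdk6-K43M, and from the deposited matrix it was 0.95 in Cdk6-K43M.

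**Figure D2:**
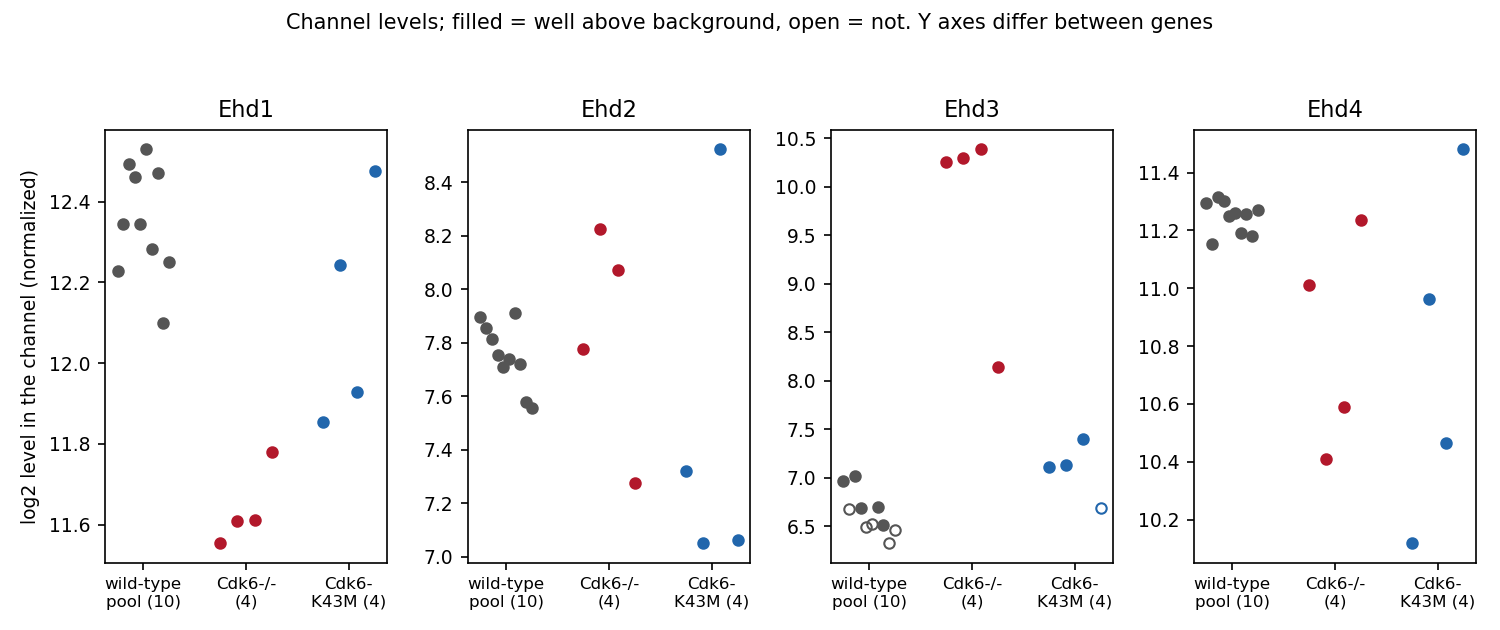
Normalized log2 level in the channel of each RNA for the brightest probe of each member, with filled symbols for spots well above background and open symbols for those that were not; the y axis differs between genes, and levels are not comparable between probes. Ehd3 lies at 6.33 to 7.02 in the wild-type pool and at 8.15 to 10.39 in Cdk6-/-, and the wild-type points of Ehd4 (11.15 to 11.32) are tighter than its mutant points (10.12 to 11.48).

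The spread of Ehd3 among the Cdk6-/- samples was larger than that of 99.4% of genes, and 77.3% of genes had a smaller spread than Ehd3 among the Cdk6-K43M samples. Replicate 4 was also lower in other raised genes. Over the 88 genes at least 2-fold higher in the other 3 Cdk6-/- samples, its median log2 ratio was 0.47 against 1.21 in the others. The corresponding medians of replicates 1 to 3 were 1.49, 1.08 and 1.04. Over the 163 genes at least 2-fold lower in the others it was not weaker, with a median of -1.52 against -1.40. The Cdk6 ratio was highest in replicate 4 among the Cdk6-/- samples, and its summed levels, in units of 1000, were the lowest of the 4 in 4 of 6 marker lists, namely B-lineage progenitor (366), T and NK cell (13.0), endothelial and stromal (0.922) and erythroid and megakaryocyte (0.987). As a log2 ratio to the wild-type sum on the same array, the B-lineage sum was lower in replicate 2 (0.199) than in replicate 4 (0.223). In the other lists just named replicate 4 stayed the lowest by that ratio. The part of these features in the Ehd3 value was not tested.

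Ehd1, the member of the recycling compartment, was below the wild-type pool in every Cdk6-/- sample. On average it was less far below the pool in Cdk6-K43M, where 1 of 4 samples was above it. Its brighter probe (A_51_P469008, NM_010119) gave log2 ratios of -0.67, -0.74, -0.88 and -0.68 in Cdk6-/- replicates 1 to 4 and -0.54 in the swapped pool. In Cdk6-K43M the values were -0.49, -0.29, -0.35 and 0.0034, and 0.11 in the swapped pool. All 5 Cdk6-/- arrays were below the wild-type pool, as were 13.3% of genes, and the Cdk6-K43M arrays straddled it. The means were -0.74 ± 0.0966 and -0.28 ± 0.208 (SD, n = 4 each). The fitted changes were -0.61 (0.653-fold) in Cdk6-/- and -0.12 in Cdk6-K43M.

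The other Ehd1 probe (A_55_P2045258) gave the same order of the genotypes. Its log2 ratios were -0.70, -0.45, -0.54 and -0.34 in Cdk6-/- (pool -0.67) and -0.21, -0.0026, -0.17 and 0.25 in Cdk6-K43M (pool 0.016). The means were -0.51 ± 0.152 and -0.034 ± 0.209 (SD, n = 4 each). On both probes every Cdk6-K43M sample was higher than every Cdk6-/- sample, by 0.46 and 0.47 on average. Such a separation with Cdk6-K43M higher was found in 4.05% of genes, and since both probes measure 1 transcript in the same RNA they are not independent. Within slides the brighter probe gave -0.67 against -0.49, -0.78 against -0.14 and -0.74 against -0.35 (Cdk6-/- against Cdk6-K43M). Centring each array on its median in place of loess turned the fitted Ehd1 change in Cdk6-K43M from -0.12 to 0.11, while the median of all genes went from -0.01 to 0.11.

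Ehd1 was bright in all samples. The channel level of the brighter probe ran from 12.10 to 12.53 (median 12.34) in the wild-type pool, from 11.55 to 11.78 in Cdk6-/- and from 11.85 to 12.47 in Cdk6-K43M. The Cdk6-/- levels thus lay below both other groups, and the Cdk6-K43M levels overlapped the wild-type range. The highest Cdk6-K43M value on either probe was that of replicate 4, the sample with the highest sum of granulocyte, monocyte and macrophage markers, whose part in it was not tested.

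Ehd2, the caveolar member, showed no common direction. Its log2 ratios (A_51_P343613, NM_153068) were -0.12, 0.37, 0.26 and -0.48 in Cdk6-/- replicates 1 to 4, with 0.17 in the swapped pool. In Cdk6-K43M they were -0.39, -0.69, 0.61 and -0.66, with 0.027 in the swapped pool. Values of either sign occurred in both genotypes, and the genotypes overlapped. The means were 0.0083 ± 0.387 and -0.28 ± 0.610 (SD, n = 4 each), and the fitted changes were 0.11 and -0.15. The difference of -0.29 between the genotypes was smaller than the pooled SD of 0.511.

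The wild-type pool, hybridised 10 times, gives the spread of repeated measurement. The Ehd2 channel level of the wild-type pool had an SD of 0.121 over 10 arrays, against 0.419 over the Cdk6-/- samples and 0.701 over the Cdk6-K43M samples. The spread of the Ehd2 ratios was larger than that of 93.7% of genes in Cdk6-/- and 96.4% in Cdk6-K43M. In Cdk6-K43M, replicate 3 alone was above the pool, and the other 3 samples lay between -0.69 and -0.39.

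Ehd4, the early endosome member, was below the wild-type pool in both genotypes on average. Its log2 ratios (A_51_P455807, NM_133838) were -0.29, -0.74, -0.73 and -0.07 in Cdk6-/-, with -0.41 in the swapped pool. In Cdk6-K43M they were -1.13, -0.30, -0.73 and 0.22, with -0.35 in the swapped pool. All 5 Cdk6-/- arrays and 4 of 5 Cdk6-K43M arrays were below the pool, and the exception was Cdk6-K43M replicate 4. That sample had the highest sum of granulocyte, monocyte and macrophage markers, whose part in the Ehd4 value was not tested. In Cdk6-/- 13.3% of genes were below the pool on all 5 arrays, and no share is given for 4 of 5 arrays. The means were -0.46 ± 0.334 and -0.48 ± 0.581 (SD, n = 4 each). The fitted changes were -0.42 and -0.43 (0.748-fold and 0.743-fold).

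The genotypes could not be distinguished by Ehd4. Their difference was -0.03 against a pooled SD of 0.474, and its sign turned when single samples were left out (range -0.26 to 0.19). The Ehd4 channel level of the wild-type pool had an SD of 0.0548 over 10 arrays, against 0.378 over Cdk6-/- and 0.594 over Cdk6-K43M samples. The lowest sample, Cdk6-K43M replicate 1, stood at 10.12 and the highest, Cdk6-K43M replicate 4, at 11.48, against a wild-type range of 11.15 to 11.32. Within slides the 2 genotypes changed order, with -0.29 against -1.13 on slide 1, -0.40 against -0.04 on slide 2 and -0.74 against -0.73 on slide 3 (Cdk6-/- against Cdk6-K43M).

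The members thus took different courses. In Cdk6-/- colonies Ehd3 was above the pool on 5 of 5 arrays, as were 11.1% of genes. Ehd1 and Ehd4 were below it on 5 of 5, as were 13.3% of genes, and Ehd2 lay on both sides. In Cdk6-K43M Ehd3 was above the pool on 5 of 5 arrays, as were 14.5% of genes, while the other members each had at least 1 array on either side. Dye effects of the 4 members were -0.15 (Ehd1), -0.12 (Ehd2), -0.11 (Ehd3) and -0.05 (Ehd4) on the log2 scale, small beside the Ehd3 change and close in size to the fitted Ehd1 and Ehd2 changes in Cdk6-K43M.

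The other genes of the pathway were read from 7 lists with 68 genes, of which 59 passed the filter on dim probes. The rule did not use these genes, but the lists were chosen with earlier results of these data known. They were tested with limma, with Benjamini-Hochberg adjustment over all 22008 genes and a threshold of 0.05. Against wild type, the SE and p-values here and below measure scatter around 1 wild-type pool. They hold no spread between wild-type samples, and they count the mutants' RNA again in the swapped pools. In Cdk6-/- against wild type 1 of 59 was higher, 1 was lower and 57 did not pass, and the median change was 0.02 against 0.0014 over all genes. Of all genes, 7.24% passed, 3.39% higher and 3.85% lower. In Cdk6-K43M against wild type 8 were higher and 8 lower, with a median of 0.05 against -0.01 over all genes, and 20.1% of all genes passed, 9.79% higher and 10.3% lower. These are 3.39% and 27.1% of the 59 genes. Rab11fip3, 1 of the 8 higher in Cdk6-K43M, met the filter only through the mutant RNA, so the filter favoured its call. Its spot was well above background in wild-type RNA on 2 of 10 arrays. Between the genotypes 0 of 59 passed in limma (0.513% of all genes did, 0.264% higher and 0.25% lower), and 9 had an unadjusted p under 0.05. Of all genes, 14.1% had such an unadjusted p in that comparison, 24.8% in Cdk6-/- and 33.4% in Cdk6-K43M against wild type.

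**Figure D3:**
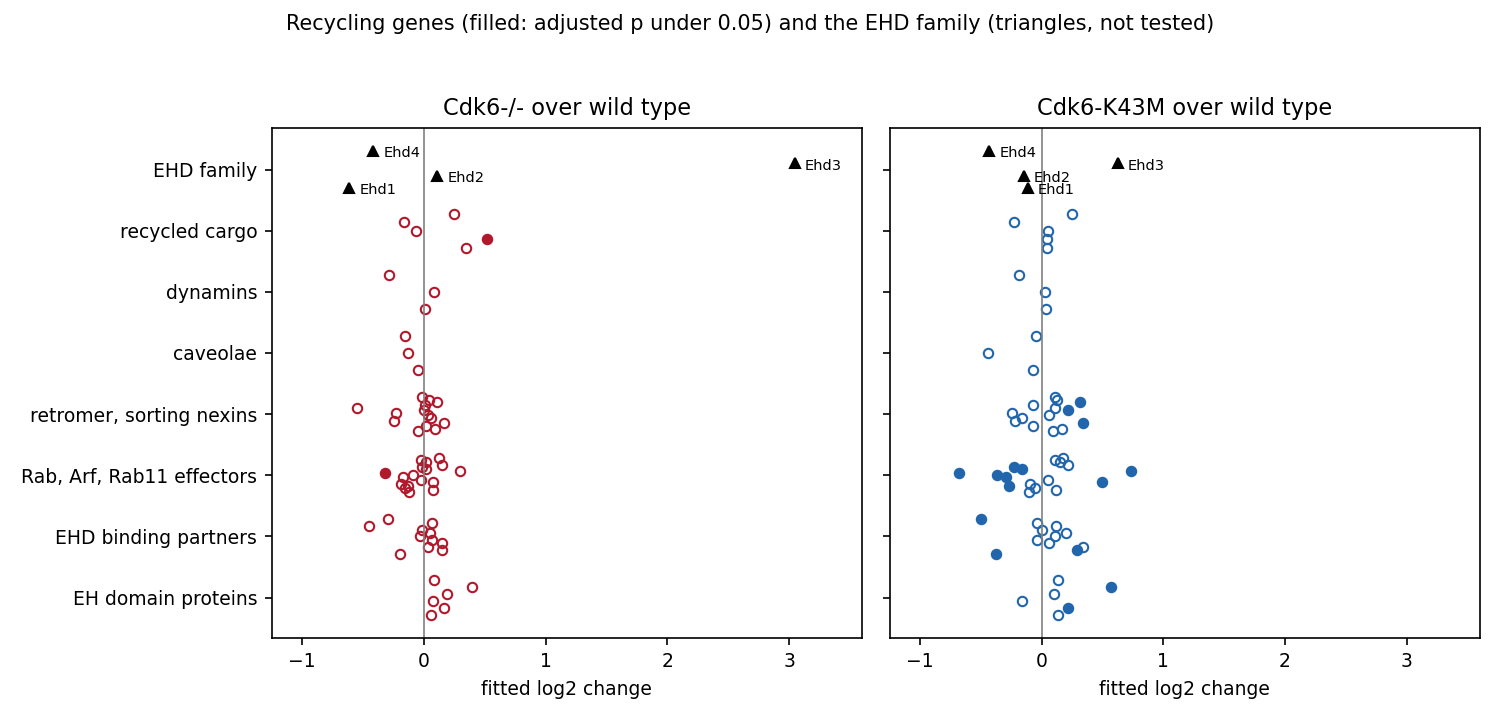
Fitted log2 change over wild type of the recycling genes by list (circles, filled where the limma adjusted p is under 0.05) and of the 4 EHD genes (triangles, not tested). The recycling genes lie between -0.55 and 0.52 in Cdk6-/- and between -0.68 and 0.74 in Cdk6-K43M, and Ehd3 stands alone at 3.05 in Cdk6-/-.

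The direction of the Cdk6-K43M calls depends on the scaling. With median centring, which moved the median of all genes to 0.11, 26 recycling genes were higher and 2 lower, and 87.9% of all calls were higher in place of 48.7%. In Cdk6-/- that centring gave 63.5% higher calls in place of 46.8%, and between the genotypes 65.9% in place of 51.3%. Without the swapped arrays and the dye term, 14 recycling genes in place of 2 passed in Cdk6-/-. Leaving out Cdk6-/- replicate 4, Cdk6-K43M replicate 3 or Cdk6-K43M replicate 4 gave 4, 5 and 4 there.

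Among recycled cargo, Igf1r, the receptor of insulin-like growth factor, rose in Cdk6-/-. Its log2 ratios were 0.40, 0.39, 0.94 and 0.26 in replicates 1 to 4 and 0.57 in the swapped pool. The fitted change was 0.52 ± 0.101 (SE; limma adjusted p = 0.0187). In Cdk6-K43M the values were 0.099, 0.020, -0.14 and 0.20, all below the lowest Cdk6-/- sample, a separation found in 4.11% of genes. The difference between the genotypes did not pass (-0.45, limma adjusted p = 0.244). A further Igf1r probe gave fitted changes of 0.49 and 0.07. With the slide as a block the Cdk6-/- call was lost (limma adjusted p = 0.0509). B2m, the light chain of MHC class I, had a change of 0.35 in Cdk6-/- and Tfrc, the transferrin receptor, 0.25, and neither passed (limma adjusted p = 0.0656 and 0.123). In Cdk6-K43M none of the 5 cargo genes passed limma (1 at an unadjusted p under 0.05), with Tfrc at 0.25 and Itgb1, integrin beta1, at 0.05. Of all genes, 20.1% passed there and 33.4% had an unadjusted p under 0.05.

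Among Rab and Arf GTPases with Rab11 effectors, 1 of 17 measured genes was lower in Cdk6-/-, and 2 were higher and 6 lower in Cdk6-K43M. These are 5.88% and 47.1% of the 17, beside 7.24% and 20.1% of all genes, and the shares were not compared by a test. Rab35, a GTPase of fast recycling to the plasma membrane, fell in both genotypes. Its log2 ratios were -0.55, -0.66, -0.57 and -0.75 in Cdk6-/- and -0.81, -1.07, -0.99 and -1.09 in Cdk6-K43M. The swapped pools gave 0.0075 and -0.38, each nearer to wild type than any single sample of its genotype. The fitted change was -0.32 ± 0.0581 in Cdk6-/- (SE; limma adjusted p = 0.0143) and -0.68 ± 0.0581 in Cdk6-K43M (limma adjusted p = 0.000111). With median centring the Cdk6-/- call was lost (limma adjusted p = 0.0956). All 4 Cdk6-K43M samples were below all 4 Cdk6-/- samples, a separation found in 4.11% of genes. The difference did not pass (-0.36, limma adjusted p = 0.151).

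Rab4a, a GTPase of rapid recycling from early endosomes, rose by 0.74 ± 0.182 in Cdk6-K43M (SE; limma adjusted p = 0.0187). It was above the wild-type pool in 3 of 4 Cdk6-K43M samples, at 0.88, 1.09, -0.06 and 0.77. Its paralog Rab4b was at -0.17, and at 0.014 with median centring, still below the median of all genes in that setting (0.11). Rab11fip3, a Rab11 effector, passed with a change of 0.49, but its spot was well above background in wild-type RNA on 2 of 10 arrays, so it met the filter through the mutant RNA and the size is uncertain. Rab11b and Rab22a, GTPases of the recycling and early endosomes, were lower by the fit, at -0.27 and -0.37 (limma adjusted p = 0.00464 and 0.00683), and neither passed with median centring (-0.05 and -0.18). Rab5a was at -0.23 and Rab14 at -0.29, 2 calls that were also lost with median centring, and the other kept probes of Rab14 gave -0.0064 and -0.0024.

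Of the EHD binding partners, 0 of 11 measured genes passed in limma in Cdk6-/- (3 had an unadjusted p under 0.05). In that comparison 7.24% of all genes passed and 24.8% had an unadjusted p under 0.05. Calls in Cdk6-K43M made up 27.3% of the 11, beside 20.1% of all genes. In Cdk6-K43M Micall1, whose product recruits EHD1 to tubular endosomes, rose by 0.29 ± 0.0622 (SE; limma adjusted p = 0.0100), but did not pass without the swapped arrays and dye term (0.18, limma adjusted p = 0.0731). Snap29, a SNARE that binds EHD1, fell by 0.50 on the log2 scale (limma adjusted p = 0.00274). Its log2 ratios were -0.43, -0.70, -0.75 and -0.37 in Cdk6-K43M and -0.17, -0.51, -0.41 and -0.21 in Cdk6-/-, and the ranges overlapped. Ehbp1l1, an EH-domain binding protein, was at -0.37 (limma adjusted p = 0.0119), a call lost with median centring. Of the 6 measured EH domain proteins outside the family, 0 passed in limma in Cdk6-/- (3 at an unadjusted p under 0.05). Calls in Cdk6-K43M made up 33.3% of the 6, beside the same 20.1% of all genes. In Cdk6-K43M Eps15l1, an adaptor of clathrin coats, rose by 0.22 and Reps1 by 0.57 (limma adjusted p = 0.0113 and 0.0341). The Eps15l1 probes disagreed, at 0.22, 0.20 and -0.07, and the Reps1 call was lost with the slide as a block (limma adjusted p = 0.103).

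Retromer and sorting nexins, which sort cargo out of endosomes, gave 0 calls in limma among 14 genes in Cdk6-/- (4 at an unadjusted p under 0.05). They gave 3 in Cdk6-K43M, or 21.4% of the 14, near the 20.1% of all genes. In Cdk6-/- 7.24% of all genes passed and 24.8% had an unadjusted p under 0.05. Vps26b, a retromer subunit, rose by 0.31 ± 0.0466 in Cdk6-K43M (SE; limma adjusted p = 0.00172), but another of its probes gave 0.02. Snx27 and Snx6 rose by 0.34 and 0.22, and neither passed with the slide as a block (limma adjusted p = 0.0822 and 0.0607). Snx7 differed by 0.68 between the genotypes, which did not pass (limma adjusted p = 0.238), and its spot was well above background in 1 of 4 Cdk6-/- samples. Over the 16 Cdk6-K43M calls and 16 alternative settings, Snap29, Rab4a, Rab35, Vps26b and Rab11fip3, the last of them dim in wild-type RNA, kept their call throughout and the other 11 lost it in at least 1.

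Some of these 11 calls were near the threshold and were lost when 1 of several samples was left out. Reps1 lost its call without Cdk6-K43M replicate 2 (limma adjusted p = 0.0676) or replicate 3 (0.0669), with a change of 0.47 to 0.66 over all 8 leave-outs. Rab14 lost it without Cdk6-K43M replicate 2 (limma adjusted p = 0.0565) or replicate 4 (0.0511). Snx27 lost it without Cdk6-/- replicate 1 (limma adjusted p = 0.0548), Cdk6-/- replicate 2 (0.0523) or Cdk6-K43M replicate 1 (0.0637). Rab4b lost it without Cdk6-/- replicate 1 (limma adjusted p = 0.0509) or Cdk6-K43M replicates 1, 2 or 3 (0.0832, 0.0676 and 0.0574). Eps15l1 lost it when a gene's kept probes were averaged (limma adjusted p = 0.102).

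Genes of caveolae, where EHD2 acts, were mostly dim, and only 3 of 7 were kept. None of Cav1, Cav2 and Cavin1 passed limma in either genotype (1 and 1 at an unadjusted p under 0.05), with changes from -0.15 to -0.05 in Cdk6-/- and from -0.44 to -0.04 in Cdk6-K43M. Of all genes, 7.24% and 20.1% passed, and 24.8% and 33.4% had an unadjusted p under 0.05. Cav1, the main coat protein of caveolae, was measurable above background in wild-type RNA on 1 of 10 arrays. None of the 3 dynamins, the GTPases of vesicle scission, passed either (1 in Cdk6-/- and 0 in Cdk6-K43M at an unadjusted p under 0.05). The changes in Cdk6-/- were 0.01 for Dnm1, 0.09 for Dnm2 and -0.29 for Dnm3. In Cdk6-K43M the spot of Dnm3 was not well above background in any of the 4 samples. By channel levels the wild-type mean was at least 1.19-fold higher than the bound there, without correction for dye. The fit, which removes a dye effect, gave a smaller log2 change of -0.19, which did not pass (limma adjusted p = 0.167). The bound is thus no minimum for the corrected change. The Dnm3 spot was well above background in the Cdk6-K43M swapped pool (log2 ratio -0.07) and in 2 of 4 Cdk6-/- samples.

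The genes most like Ehd3 were those with the highest Pearson correlation of log2 ratios over the 8 single-sample arrays, among 2129 named genes with an SD of at least 0.3. They were Atg13 (r = 0.957), Apold1 (0.952), Gpr19 (0.939), Nipbl (0.935), Oas1c (0.929), Rab37 (0.920), Zbtb20 (0.914) and Arpc5l (0.914). The 8 arrays share the wild-type pool and fall into 2 genotypes, so these correlations are a description. None of the 8 came near Ehd3 in size. Apold1, an endothelial early response gene, averaged -0.12 ± 0.199 in Cdk6-/- (SD, n = 4). In Cdk6-K43M its spot was not well above background in any of the 4 samples, so its correlation rests in part on values below background. The wild-type mean was at least 2.10-fold higher than the bound there, without correction for dye. Rab37, a GTPase of secretory vesicles, averaged 0.36 ± 0.392 in Cdk6-/- and -0.91 ± 0.532 in Cdk6-K43M (SD, n = 4 each). Atg13, a subunit of the autophagy initiation complex, averaged -0.0013 ± 0.250 and -0.51 ± 0.0981. In all 8 genes Cdk6-/- replicate 4 was the lowest Cdk6-/- sample, as it was for Ehd3, a feature that the choice by correlation favours.

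**Figure D4:**
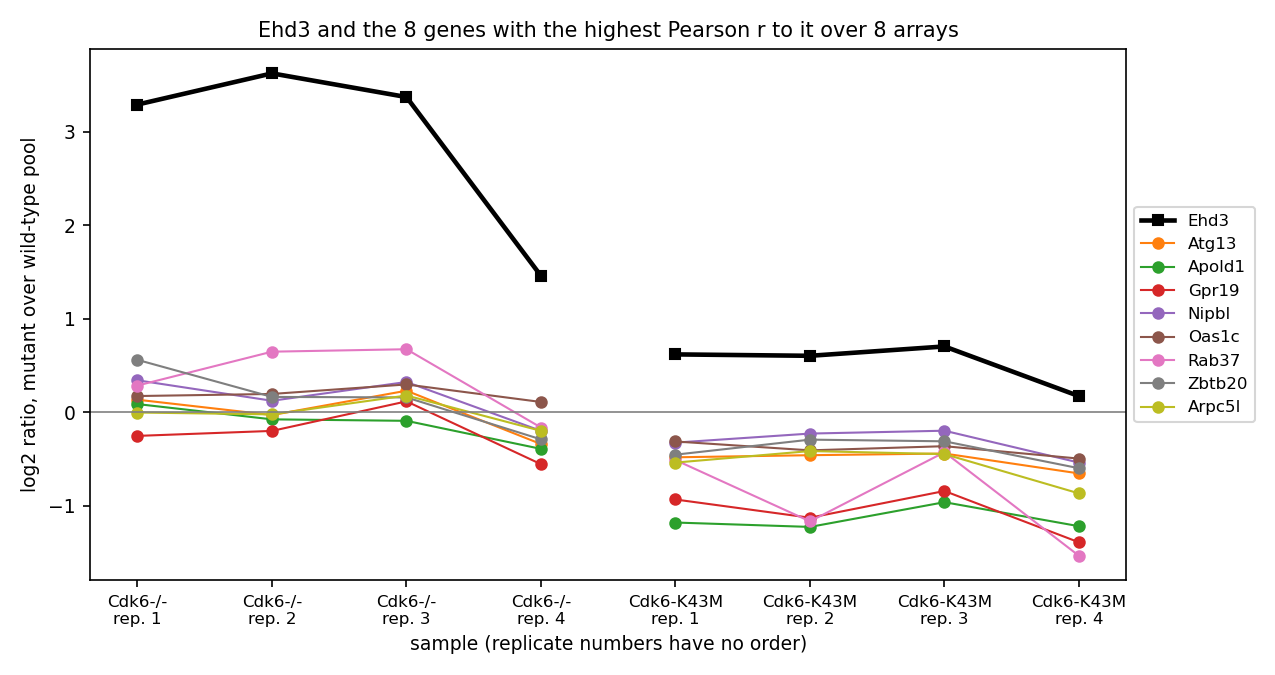
Log2 ratio over the wild-type pool on the 8 single-sample arrays for Ehd3 (black squares) and the 8 genes with the highest Pearson correlation with it (coloured dots); lines join samples for reading only. Ehd3 spans 0.17 to 3.62, whereas Atg13 spans -0.65 to 0.23; the Cdk6-K43M points of Apold1 are from spots not well above background.

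For the other members the same measure named different genes. Ehd1 was most like Nek6 (r = 0.957), Pdxk (0.949) and Plec (0.946). Plec, the cytoskeletal linker plectin, averaged 0.19 ± 0.0939 in Cdk6-/- and 0.84 ± 0.216 in Cdk6-K43M. Ehd2 was most like Glrx (0.960), Gfra1 (0.951) and Aldh1b1 (0.933), and Ehd4 like P2ry14 (0.939), Ralgps2 (0.935) and Evi2a (0.918). Ralgps2, an exchange factor of Ral GTPases, was below the wild-type pool in both genotypes, at -0.95 ± 0.429 and -0.86 ± 0.478 (SD, n = 4 each).

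The neighbours of Ehd3 on its chromosome differed among themselves. In RefSeq's gene order the 3 nearest genes with a probe on one side are Lclat1, Capn13 and Galnt14, and on the other Xdh, Srd5a2 and Memo1, with Galnt14 and Xdh nearest among them. Capn13 and Srd5a2 did not pass the filter on dim probes. Lclat1, a cardiolipin-remodelling acyltransferase, had changes of -0.04 in Cdk6-/- and 0.17 in Cdk6-K43M, and Memo1, a cell motility mediator, 0.12 and -0.05. None of these passed (limma adjusted p = 0.121 to 0.766).

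Galnt14, which starts mucin-type O-glycosylation, had the largest spread among Ehd3 and these 6 neighbours, with an SD of 2.16 in Cdk6-/- and 0.991 in Cdk6-K43M. Its log2 ratios (A_51_P337230) were -0.11, 3.86, 2.41 and -0.75 in Cdk6-/-, with 2.57 in the swapped pool. In Cdk6-K43M they were 0.13, -1.20, 1.05 and 0.72, with 0.45 in the swapped pool. Cdk6-/- replicates 2 and 3 were high and replicates 1 and 4 were not, so that replicate 1 was high in Ehd3 and not in Galnt14. The fitted changes of 1.82 and 0.45 did not pass (limma adjusted p = 0.127 and 0.691). The other Galnt14 probe was dim and did not pass the filter, at 0.74 in Cdk6-/- replicate 2 and 0.45 in replicate 3.

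Xdh, xanthine dehydrogenase, was dim. Its log2 ratios were 0.68, 0.41, 0.55 and 0.85 in Cdk6-/- replicates 1 to 4, and -0.17, 0.31, -0.02 and 0.64 in Cdk6-K43M. The sample lowest in Ehd3, Cdk6-/- replicate 4, was the highest in Xdh. The probe was not well above background in wild-type RNA on any of 10 arrays, so only a bound holds there, and the gene met the filter through the mutant RNA. The Cdk6-/- mean (log2 level 7.07) was at least 1.53-fold higher than the wild-type bound (6.46), without correction for dye. The fit, which removes a dye effect, gave a log2 change of 0.59 (limma adjusted p = 0.0216). This is slightly less than the bound (0.62 on the log2 scale), which is thus no minimum for the corrected change. In Cdk6-K43M the change was 0.13 (limma adjusted p = 0.515).

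**Figure D5:**
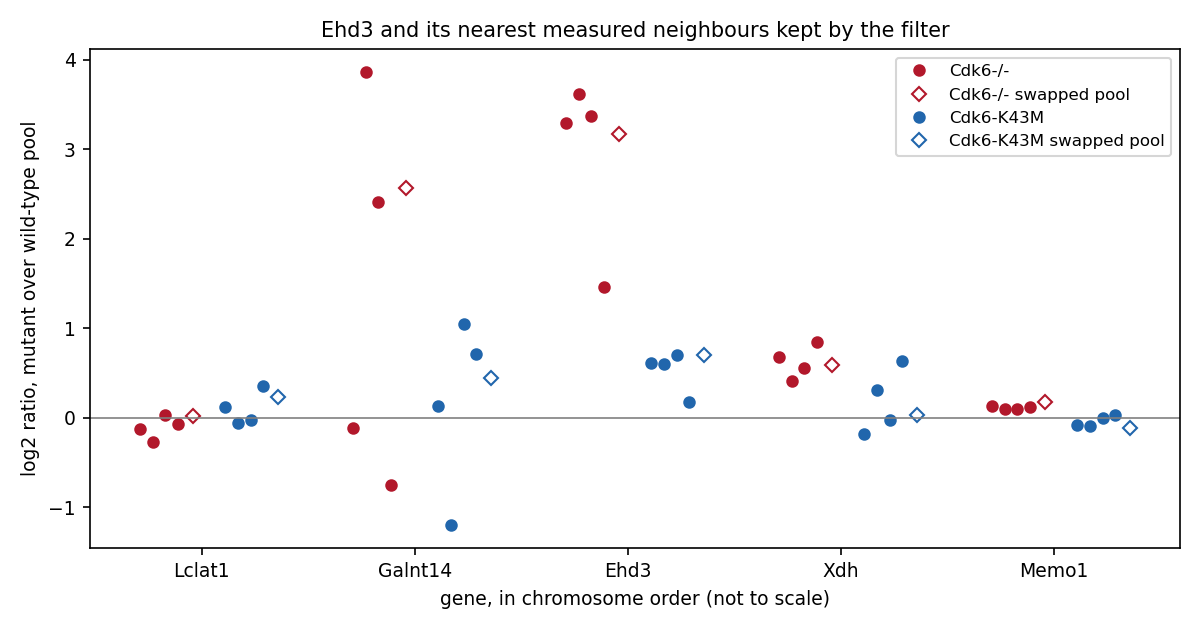
Log2 ratio over the wild-type pool for Ehd3 and its nearest measured neighbours in RefSeq gene order, not to scale; dots are single samples and diamonds swapped pools. In Cdk6-/- the dots of Ehd3 lie between 1.46 and 3.62 and those of Galnt14 between -0.75 and 3.86, while Lclat1 and Memo1 stay near 0.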

How the data were processed

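Scans were quantified with Agilent Feature Extraction (version 11.5.1.1), and the intensity of each spot, its local background and quality flags are given in both dyes, per the file headers. The authors deposited a matrix of log2 values whose name says loess; how its background was corrected is not known here, and it served as an alternative. Its direction followed the scanner ratios, its column medians ran from 5.54 to 5.85, and 34 cells in each of 2 columns hold text and were set to missing.

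Median signals went through normexp (offset 50) and loess within arrays in limma 3.58.1 (R 4.3.3, data.table, version 1.17.8). Non-uniform spots were dropped and repeated spots averaged. RefSeq transcripts of GRCm38.p6 named 58.3% of probes. Probes stayed if well above background in 3 of 4 samples of either mutant or in 5 of 10 wild-type channels, and each gene took its brightest one, leaving 22008 genes. Comparisons with wild type used 10 arrays and a dye term (7 residual degrees of freedom), which counts the mutants' RNA again in the swapped pools. The genotypes were compared on the 8 single-sample arrays (6 residual). Channel levels were scaled by Aquantile. The fit was tested on simulated data.

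The members and lists were chosen with earlier results of these data known. Named were all members, up to 3 genes per list and comparison with the smallest p, the 8 genes most correlated with Ehd3 and 3 for each other member, and the 3 nearest measured genes on each side of Ehd3. Other called list genes were named after their values were seen, and 1 gene that the rule names is not reported here. The number of arrays limits the precision.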

Additional observations from a re-analysis of the deposited data

Results flagged for a closer look

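The log2 ratio of Ehd3 in Cdk6-/- replicate 4 was 1.46, far from the other 3 Cdk6-/- samples (3.29 to 3.62). Its gap to the nearest sample was 0.846 of the whole range of the group. Of 15 groups of member values looked at, 1 had such a gap. The cut-off is one that about 1 in 20 independent groups would pass by chance. The 15 groups are not independent, because they reuse the same RNA, and these ratios are among those that chose the family. Nothing is therefore read from the count, for or against chance.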

How the results depend on the processing

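Ehd3 kept its sign in all settings run. Its change from Agilent's processed signals was 4.73 in Cdk6-/-, 1.57 in Cdk6-K43M and -3.17 between the genotypes, and from the deposited matrix 0.95 in Cdk6-K43M; the cause was not tested. The Ehd1 change in Cdk6-/- was -0.74 without the swapped arrays and dye term, which leaves the dye effect in it. With median centring Ehd1 was 0.11 in Cdk6-K43M and 0.64 between the genotypes, and Rab4b in Cdk6-K43M reversed to 0.014, with the median of all genes there at 0.11. Ehd4 between the genotypes changed sign in 1 setting and in 4 of 8 leave-outs.

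Recycling genes past the threshold in Cdk6-/- numbered 14 without the swapped arrays and dye term, 4 with the slide as a block and 2 to 5 when 1 sample was left out. In Cdk6-K43M they numbered 28 with median centring and 13 to 17 when 1 sample was left out. All genes past it in Cdk6-/- (1593) numbered 802 with median centring, 3292 without the swapped arrays and dye term, 822 with the slide as a block, and 612 to 1931 when 1 sample was left out, with 612 without Cdk6-/- replicate 1 and 951 without Cdk6-/- replicate 2. Between the genotypes (113) they numbered 73 from processed signals, 33 with the slide as a block, and 36 to 77 when 1 sample was left out.

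Samples with the same replicate number correlated at 0.08, -0.07, 0.23 and 0.14 in their deviations from the group means, and not every sample correlated best with its own number. A replicate block gave 37 calls between the genotypes and 0 among recycling genes.

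Ehd3 in wild type is limited by its low signal over background.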
